A study of Rattus norvegicus with 32 samples.

Results

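The cytosolic ribosomal protein genes were described here across 8 groups of rat C6 glioma cells, an established line derived from a chemically induced rat brain tumour. The members were the genes whose array name is Rpl or Rps followed by a number, with an optional a, x or y, together with Rplp0, Rplp1, Rplp2 and Rpsa. The kinases of ribosomal protein S6, whose names begin with Rps6k, were left out. The rule took 75 of the 26583 gene names on the array, 45 of the large subunit and 30 of the small subunit, measured by 137 of 30367 features and 155 of 42877 spots. A feature is an oligonucleotide of one sequence, and most features were printed as a single spot.

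Confluent cells grown with serum were left untreated (Control), given 100 nM angiotensin II (Ang II), or given Ang II after a 30 min pre-treatment with 10 µM of an antagonist. The antagonists were Losartan, which blocks the AT1 receptor (Ang II+Los), and PD123319, which blocks the AT2 receptor (Ang II+PD123319). Ang II was compared with Control (the Ang II comparison), Ang II+Los with Ang II (the Losartan comparison) and Ang II+PD123319 with Ang II (the PD123319 comparison), each as the first group minus the second. RNA was taken at 3 h and at 6 h, with 4 replicates in each group and 32 one-colour arrays in all. Each replicate number at each time was 1 slide of 4 arrays, and each treatment had the same place on every slide, so treatment and place cannot be told apart. The question asked of these genes was whether Ang II, or Ang II with either receptor blocked, moved them at either time. All samples come from 1 line, and nothing states that replicates were separate cultures, so p-values measure only the spread between these samples, which may be technical.

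The cytosolic ribosome is built from a large and a small subunit, each made of ribosomal RNA and many proteins, most of which are needed in equal numbers. The small subunit reads the messenger RNA, and the large subunit joins the amino acids. Ribosomal protein transcripts are among the most abundant in dividing cells. Many begin with a stretch of C and T bases, the terminal oligopyrimidine tract, through which the mTOR pathway and the protein LARP1 control their translation. Their output can therefore change without a change in transcript level, and an array measures only the transcript.

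The sequence at the start of the transcripts is shown because it is the feature that many members share and that the name rule did not use. RefSeq promoter entries of the rat build GRCr8 were found for 60 of the 75 members, with 61 entries since Rps27a had more than 1. Each line gives 30 bases on the transcribed strand, 10 before and 20 from the annotated start on, and capitals mark the longest run of C and T. The first 5 are the members with the lowest p in the Ang II comparison at 3 h, the sixth is the member with the lowest p in the Losartan comparison at 3 h, and the rest show long and short runs.
Rplp1, chr8:71290853-71290882, minus strand: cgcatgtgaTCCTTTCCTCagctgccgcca
Rpl29, chr8:115947633-115947662, plus strand: TTTCTCTTTCTCTTCCggtcccaggcgctg
Rps27, chr2:177964587-177964616, minus strand: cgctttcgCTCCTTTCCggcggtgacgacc
Rpl31, chr9:49143101-49143130, plus strand: atccctcgcgCCTTTCCTTTCCaacttggg
Rpl13a, chr1:104748894-104748923, minus strand: TCCTTTCCTaggcggctgccgaagatggcg
Rps28, chr7:15311314-15311343, minus strand: ccctgctcacgtgaCTCCTCTCCgctagat
Rplp0, chr12:46718371-46718400, minus strand: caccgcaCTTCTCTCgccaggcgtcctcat
Rps23, chr2:23814507-23814536, plus strand: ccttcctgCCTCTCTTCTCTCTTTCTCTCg
Rplp2, chr1:205975911-205975940, plus strand: cgCCgccggacgccgccgaggtcgcacgcg
Rps6, chr5:106420521-106420550, minus strand: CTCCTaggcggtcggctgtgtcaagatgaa

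A run of at least 8 C or T bases lay in this window in 39 of the 61 member entries (63.9%). It lay there in 3601 of all 33469 RefSeq entries (10.8%), the members included. The longest run had a median of 9 bases in the members, with a range of 2 to 21, against a median of 4 bases in all entries. The letters CTTTC, which such a run can contain, were present in 37.7% of member entries and in 3.39% of all entries. On the other strand, read as GAAAG, they were present in 1.64% and 3.87%. Of the 39 runs, 25 began within 5 bases of the annotated start, as did 1403 of the 3601 runs in all entries. In Rpl13a the run ended before the annotated start, and in Rps28 it began after it.

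**Figure D1:**
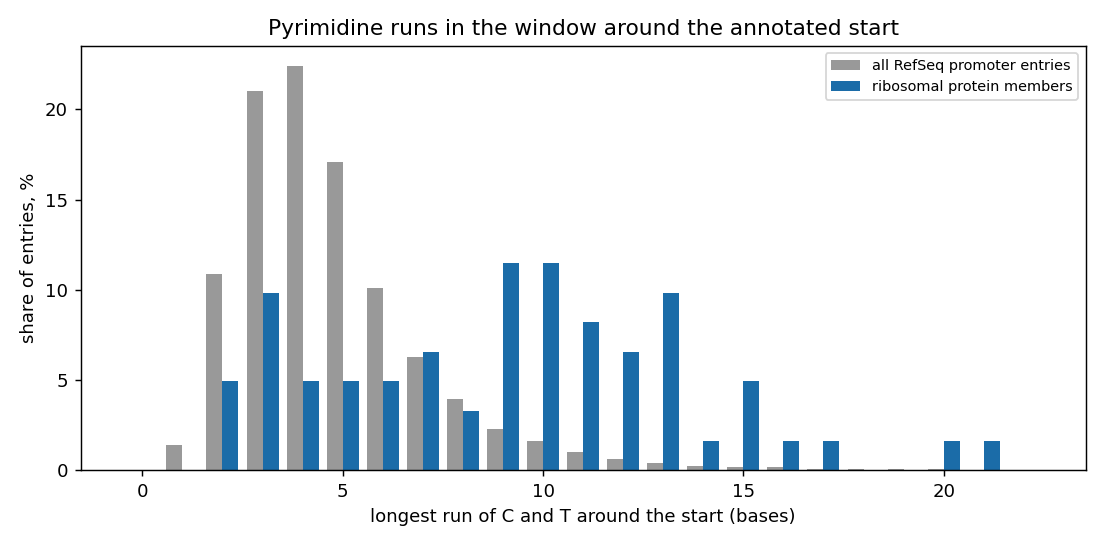
Share of entries, in percent, by the length in bases of the longest run of C and T in the window around the annotated start. Gray bars are all 33469 RefSeq promoter entries and blue bars are the 61 entries of ribosomal protein members, whose median run of 9 bases lies to the right of the median of 4 in all entries.

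The members were bright, and no member spot was saturated on any array. All 75 passed the filter on dim features at each time, and all 75 also passed when every array was required to be well above background. After normalization their mean log2 signal ran from 7.98 (Rpl15) to 17.29 (Rpl41) at 3 h, with a median of 15.66. At 6 h it ran from 7.70 (Rpl15) to 16.76 (Rpl41), with a median of 15.37. At each time 71 of the 75 lay in the brightest 10% of the genes tested. Rplp0 and Rplp2 followed Rpl41 at 3 h, and Rplp0 and Rps12 followed it at 6 h, while Rpl28 and Rpl37a came next above Rpl15. A signal depends on the feature as well as on the transcript, so this order is one of signals and not of transcript amounts. Member features supplied between 11.2% and 14.8% of the summed signal of the kept features on the arrays of 3 h, and between 10.5% and 12.8% on those of 6 h. In bulk samples such as these, fewer cells of a kind and less RNA per cell cannot be told apart.

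Of the markers of glial and glioma cells, 6 of 9 were well above background on all arrays of each time (S100b, Vim, Nes, Cspg4, Sox2 and Cd44), and Gfap, Olig2 and Fabp7 were not. Sox2 was at 0.59 in the Ang II comparison at 3 h with an unadjusted p under 0.05, so that 1 of the 6 tested was higher and 0 were lower. Of all genes in that comparison 5.32% were higher and 7.38% lower. The log2 of the glial list's summed signal ran from 12.92 to 13.21 in Control and from 12.76 to 13.60 in Ang II. Of other lists, 1 of 5 neuronal, 4 of 7 microglial or leukocyte, 1 of 5 endothelial and 1 of 5 epithelial markers were well above background on every array of 3 h. Ptprc and Pecam1 were above background on none. Cx3cr1, a microglial receptor gene, had a log2 fold change of -1.11 in the Ang II comparison at 3 h, with an unadjusted p under 0.05, and Itgam had one of -0.50 without passing. Over the 5 microglial or leukocyte markers tested at 3 h, 1 was lower and 0 were higher, and the log2 of their summed signal ran from 7.88 to 8.85 in Control and from 7.90 to 8.46 in Ang II. Epcam, the only epithelial marker tested at 3 h, was at 0.51 with an unadjusted p under 0.05, and Cdh1 was above background on no array. At 6 h Krt5, an epithelial keratin, was at -0.87 and Tyrobp, a leukocyte adaptor gene, was at -0.24, each with an unadjusted p under 0.05. At that time 10.9% of all genes were lower in the Ang II comparison. The part of such markers in the results for the members was not tested. The receptor genes Agtr1a, Agtr1b and Agtr2 were not well above background on any array.

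Before normalization the median log2 signal of the members ranged from 15.17 to 16.30 over the 16 arrays of 3 h and from 14.66 to 16.30 over those of 6 h. At 3 h every Control array had a lower median than the Ang II array on its slide. The pairs read 15.25 and 15.63 on the slide of replicate 1, 15.76 and 16.30 on that of replicate 2, 15.40 and 15.53 on that of replicate 3, and 15.22 and 15.50 on that of replicate 4. The median over all kept features was also lower on each Control array than on the Ang II array of its slide, at 8.29 and 8.75 for replicate 1 and 8.52 and 9.49 for replicate 2. After cyclic loess the member medians ranged from 15.48 to 15.80 at 3 h and from 15.19 to 15.62 at 6 h. Group means of these medians were 15.68 ± 0.10 (SD, n = 4) in Control, 15.63 ± 0.10 in Ang II, 15.61 ± 0.14 in Ang II+Los and 15.67 ± 0.06 in Ang II+PD123319 at 3 h. At 6 h they were 15.37 ± 0.15, 15.34 ± 0.11, 15.34 ± 0.12 and 15.36 ± 0.18 in the same order. The ranges of the 4 groups overlapped at each time.

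**Figure D2:**
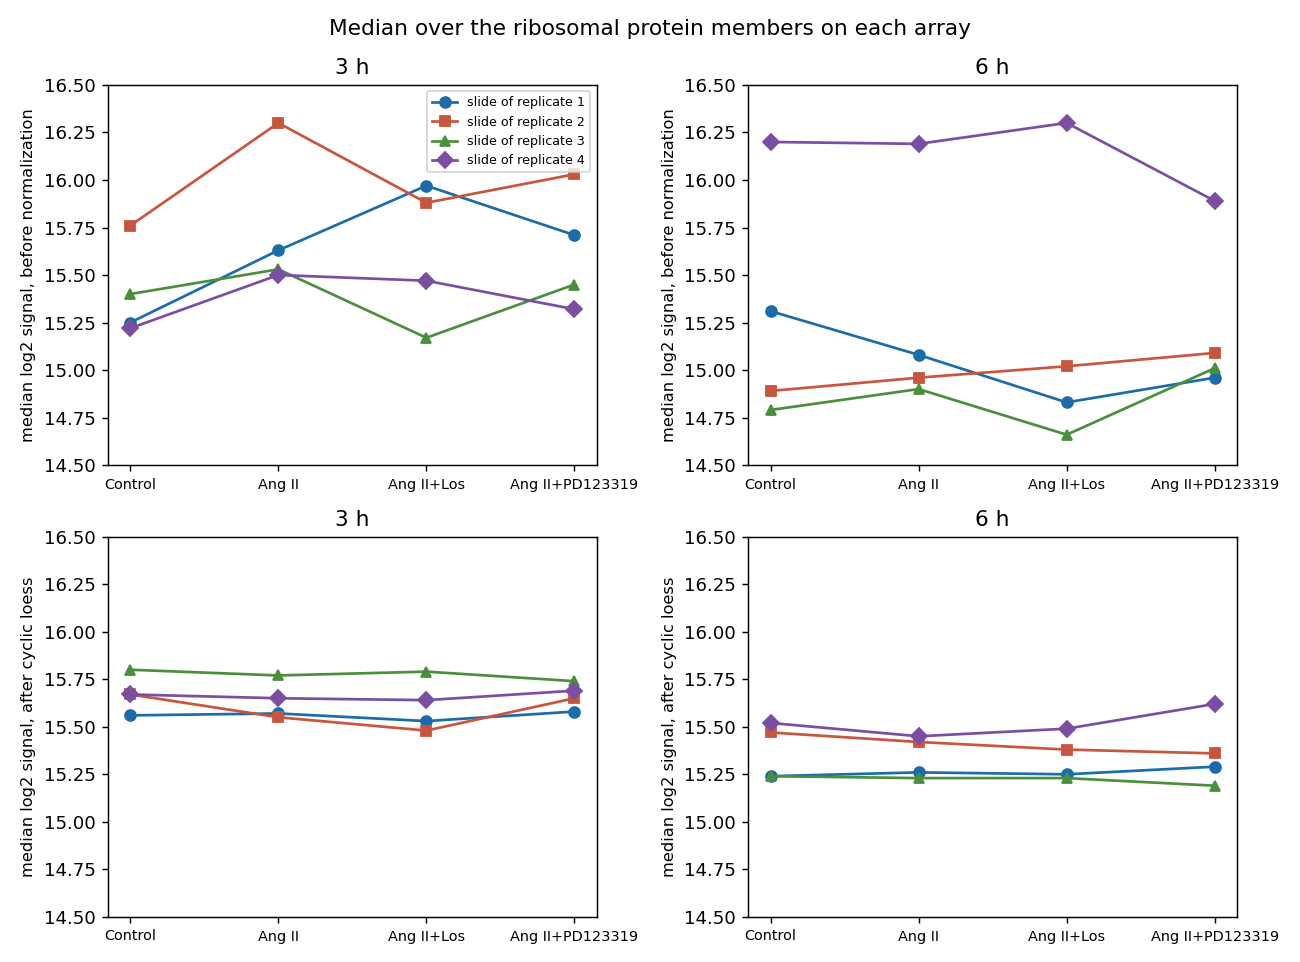
Median log2 signal over the member features before normalization (upper panels) and over the 75 members after cyclic loess (lower panels), for the 4 treatments at 3 h (left) and 6 h (right). Each line joins the 4 arrays of 1 slide. Before normalization the Control arrays of 3 h lie below the Ang II arrays on each slide, and after it the medians lie between 15.48 and 15.80 at 3 h and between 15.19 and 15.62 at 6 h.

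In the Ang II comparison at 3 h, 5 of the 75 members were lower in Ang II with an unadjusted p under 0.05 in limma with the slide as a block, and 0 were higher. Over all 13628 genes tested, 7.38% were lower and 5.32% were higher at that limit, so the 6.67% of members that were lower is near the background in this fit. None of the members and none of the other genes (0%) had an adjusted p under 0.05, and the lowest adjusted p of a member was 0.32. The median log2 fold change of the members was -0.09, against 0.00 over all genes and -0.02 over the 1292 other genes in the brightest 10%. Of the 75 members, 55 lay below 0 (73.3%), against 49.7% of all genes. The median was -0.11 for the 45 large subunit members and -0.07 for the 30 small subunit members. The members' median was below 0 on each slide, at -0.03, -0.13, -0.11 and -0.06 for replicates 1 to 4, where the medians of all genes lay between -0.01 and 0.01.

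The 5 members were Rplp1, Rpl29, Rps27, Rpl31 and Rpl13a. Rplp1 is an acidic protein of the stalk, the arm of the large subunit that binds the elongation factors. Its log2 signal was 15.97, 16.60, 16.45 and 16.21 in Control and 15.88, 15.77, 16.14 and 15.92 in Ang II. It was lower in Ang II on all 4 slides, but the groups overlapped, since the Ang II array of replicate 3 was above the Control array of replicate 1. The log2 fold change was -0.38 ± 0.14 (SE, n = 4, adjusted p = 0.35), and it no longer passed the unadjusted limit without replicate 2, at -0.23, or without replicate 4, at -0.41. With Losartan it read 15.64, 15.56, 16.30 and 16.03, and with PD123319 15.90, 16.01, 16.21 and 16.22, so all 3 treated groups overlapped. At 6 h it read 15.49, 16.01, 15.48 and 15.65 in Control and 15.61, 15.61, 15.51 and 15.65 in Ang II, with a fold change of -0.06 ± 0.08. Its only feature lies at chr8:66046260-66046319 of the array's annotation, build rn4.

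Rpl29 is a small basic protein of the large subunit, and its only feature lies at chr8:111575374-111575433 of rn4. It read 16.31, 16.15, 16.21 and 16.19 in Control and 16.05, 15.54, 16.19 and 15.84 in Ang II. The Ang II array of replicate 3 lay within the range of the Control arrays and the others lay below it. The log2 fold change was -0.31 ± 0.12 (SE, n = 4, adjusted p = 0.36) and it did not pass without replicate 2, at -0.21, or without replicate 4, at -0.30. Rps27, a zinc finger protein of the small subunit, read 15.92, 15.98, 16.13 and 15.95 in Control and 15.53, 15.70 and 15.73 in Ang II replicates 1, 2 and 4, with replicate 3 lower than its Control array by a log2 difference of -0.14. Its log2 fold change was -0.25 ± 0.09 (SE, n = 4, adjusted p = 0.35), and its 2 features, both on chromosome 2 of rn4, gave -0.27 and -0.20. It was lower on all 4 slides, with the Ang II array of replicate 3 inside the Control range, and did not pass without replicate 1, at -0.21, or without replicate 4, at -0.26. Rpl31 lies at the rim of the tunnel through which the new chain leaves. It read 15.72, 15.67, 15.89 and 15.83 in Control and 15.64, 15.46, 15.70 and 15.50 in Ang II, lower on all 4 slides, with the Ang II array of replicate 3 inside the Control range. It had a log2 fold change of -0.20 ± 0.09 (SE, n = 4, adjusted p = 0.39), and its 2 features gave -0.27 and -0.14. It did not pass when any 1 of the 4 replicates was left out, nor with quantile or 75th percentile normalization.

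Rpl13a, a large subunit protein known also for a role outside the ribosome in silencing inflammatory transcripts, had the largest fold change, at -0.51 ± 0.14 (SE, adjusted p = 0.32). This fit used only 2 Control arrays, since the spot of its single feature carried an outlier flag on those of replicates 3 and 4. The measured values were 16.15 and 16.68 in Control and values from 15.91 to 16.23 on the 4 arrays of Ang II, so the difference rests on 2 slides, at -0.24 and -0.74, and the groups overlapped. It did not pass without replicate 2. When spots with that flag were kept, a choice made after seeing the data, Rpl13a and Rps27 no longer passed the unadjusted limit, with Rps27 at -0.15, and Rplp1, Rpl29 and Rpl31 did. Such flags on member spots numbered 5 to 12 on the 4 Control arrays of 3 h and 0 to 3 on the 12 other arrays of that time. On the Control arrays all but 2 of these flags were for non-uniform spots, and 9 members lacked a value on at least 1 array of 3 h. At 6 h there was 1 flag on a member spot. Over all spots of the array, those flagged as non-uniform numbered 29 to 167 on Control arrays of 3 h and 3 to 19 on the other arrays. At 6 h they numbered 25 to 45 on Control arrays and 0 to 19 on the others. The part of these spots in the comparison was not tested beyond the values above.

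In the Ang II comparison at 6 h, 0 of 75 members passed an unadjusted p under 0.05 in either direction, where 10.6% of all 16443 genes were higher and 10.9% were lower. After adjustment no gene (0%) passed a p of 0.05 in limma, while leaving out replicate 3 gave 328 genes, 0 of them members. Requiring every array to be well above background gave 69 genes, the authors' deposited values 47 and no filter 1. Of these too, 0 were members. The members' log2 fold changes ran from -0.22 (Rpl37a) to 0.13 (Rpl13a), with a median of -0.03 against -0.01 over all genes and 0.00 over the 1574 other genes in the brightest 10%. The slides gave medians of 0.01, -0.09, 0.02 and -0.04 for replicates 1 to 4, with no common direction. Without replicate 2 the members' median was 0.00, and it lay above that of all genes by 0.01. The members were measured more closely than most genes. Their median SE was 0.07, against 0.10 for all genes, and for 68 of the 75 the 95% interval of the fold change lay within 1.2-fold in either direction, which held for 26.2% of all genes. At 3 h the median SE was 0.11 against 0.16, and the interval lay within 1.2-fold for 15 members and for 3.41% of all genes. The members were not compared in this respect with the other genes in the brightest 10%, so closeness common to bright genes is not set apart.

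**Figure D3:**
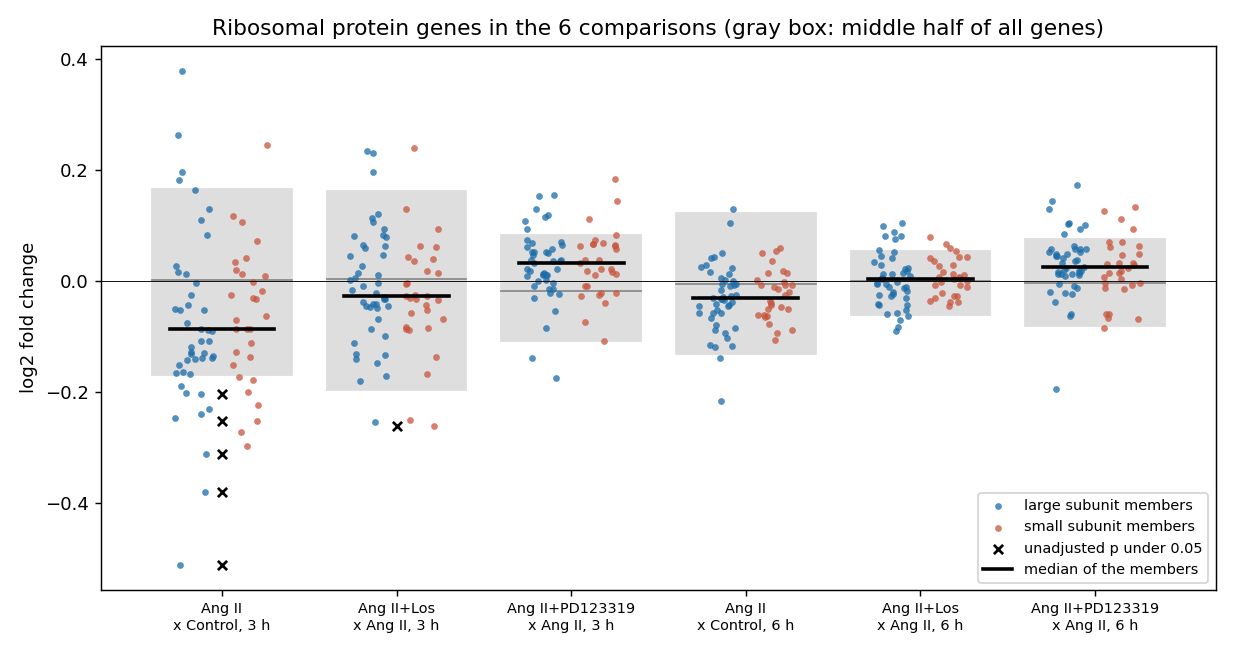
Log2 fold change of each of the 75 members in the 6 comparisons, with 45 large subunit members in blue and 30 small subunit members in red. Black bars are the members' medians, crosses the members with an unadjusted p under 0.05 in limma, and gray boxes with a gray line the interquartile range and median of all genes. The crosses are 5 in the Ang II comparison and 1 in the Losartan comparison, at 3 h, and 0 in the other comparisons.

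With the AT1 receptor blocked, at 3 h in the Losartan comparison, 1 of 75 members (Rps28) was lower with an unadjusted p under 0.05 and 0 were higher. The background was 6.11% lower and 4.94% higher, and 0% of all genes passed after adjustment. Rps28 is a small protein of the small subunit near the exit of the messenger RNA. It read 16.21, 16.36, 15.91 and 16.24 in Ang II and 16.08, 15.76, 15.94 and 15.89 in Ang II+Los, with a log2 fold change of -0.26 ± 0.12 (SE, n = 4, adjusted p = 0.43). It was lower on 3 of 4 slides, by 0.13, 0.60 and 0.35 for replicates 1, 2 and 4, and 0.04 higher on that of replicate 3, so it was outside the rule for naming members and is given because it is the only one. Without replicate 2 and without replicate 4 no member passed, and without replicate 1 the only one was Rpl37, which was higher. The members' median was -0.03, the same to 2 decimals as that of the other genes in the brightest 10%, with slide medians of -0.08, -0.05, 0.07 and 0.01 and no common direction. It was 0.02 without replicate 1 and 0.01 without replicate 2. At 6 h, 0 members passed the unadjusted limit against a background of 0.827% higher and 1.19% lower, with 0% at an adjusted p under 0.05. The fold changes at 6 h ran from -0.09 to 0.10 and had a median of 0.00. For 70 of 75 members the interval lay within 1.2-fold.

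With the AT2 receptor blocked, in the PD123319 comparison, 0 of 75 members passed the unadjusted limit at 3 h, against 2.11% of genes higher and 0.903% lower, and 0 passed at 6 h, against 3.89% higher and 2.49% lower. No gene (0%) had an adjusted p under 0.05 at either time in this fit. At 6 h 4 genes passed with no filter and 1 with spots with outlier flags kept, 0 of them members. The members' median was 0.03 at each time. At 3 h the other genes in the brightest 10% also had a median of 0.03. The members' median lay between -0.01 and 0.06 over the slides of 3 h and was 0.01 without replicate 2. At 6 h the slides gave 0.03, -0.03, -0.01 and 0.12, and the median was 0.00 without replicate 4. The array of Ang II+PD123319 replicate 4 at 6 h had the highest member median of that time, 15.62. All comparisons at a time share the Ang II arrays, so a value that is low in Ang II is low against each of the other groups. A change of each comparison between 3 h and 6 h was tested in limma on all 32 arrays together. None of the 13615 genes tested (0%) had an adjusted p under 0.05 for any of the 3 comparisons. For the Ang II comparison 4 of 75 members had an unadjusted p under 0.05, against 7.07% of all genes, with a difference between the times of 0.65 for Rpl13a, 0.37 for Rpl29, 0.23 for Rps27 and 0.19 for Rpl8. For the others the count was 0, against 5.21% for the Losartan comparison and 1.78% for the PD123319 comparison.

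By role, the stalk proteins Rplp0 and Rplp2 stood beside Rplp1 in the Ang II comparison at 3 h. Rplp0, the base of the stalk, was at -0.20 ± 0.11 (SE, n = 4) and lower on all 4 slides without passing the unadjusted limit. Rplp2, the partner of Rplp1, was at 0.18 ± 0.25, with slide differences of 1.06, -0.31 and -0.22 and no Control value for replicate 1. Its Control array of replicate 2 read 15.57, where the other Control arrays with a value read 17.07 and 16.98. At 6 h the 3 stalk members lay between -0.06 and 0.04. Rpl41, the shortest ribosomal protein, read 17.56, 17.28 and 17.48 in Control, with no value for replicate 4, and 17.34, 17.30, 17.17 and 17.45 in Ang II at 3 h. The 3 h value came to -0.14 ± 0.11 as a fold change, and that of 6 h to -0.10 ± 0.13. On the Ang II+PD123319 array of replicate 4 at 6 h it read 17.32, where the other arrays of that group read 16.62 to 16.75.

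Rpl5 and Rpl11 bind the 5S RNA and, when free of ribosomes, bind MDM2, the ligase that degrades p53. Rpl5 was at 0.11 ± 0.13 (SE, n = 4) at 3 h and 0.02 ± 0.08 at 6 h in the Ang II comparison. Rpl11 was at -0.25 ± 0.11 at 3 h, from 2 slides because its Control spots of replicates 3 and 4 carried the flag, and at -0.04 ± 0.09 at 6 h. With Rpl23, Rpl26, Rps7 and Rps27a, other members known to bind MDM2, they had medians of -0.09 at 3 h and -0.06 at 6 h, and 0 of 6 passed. The proteins on the catalytic side of the large subunit, Rpl3, Rpl4, Rpl8 and Rpl10, lay between -0.24 and -0.13 at 3 h and between -0.08 and 0.04 at 6 h, and 0 of 4 passed. Of the 7 members at the rim of the exit tunnel, Rpl31 alone passed at 3 h and 0 passed at 6 h.

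On the small subunit, 6 proteins of the head and of the channel for the messenger RNA, such as Rps2, Rps3, Rps15, Rps20 and Rps29, lay between -0.18 and -0.02 at 3 h and between -0.05 and 0.00 at 6 h in the Ang II comparison, and 0 of 6 passed. Rps6, the substrate of the S6 kinases that act below mTOR, read 15.50, 15.83, 15.98 and 15.79 in Control and 15.43, 16.07, 15.83 and 15.80 in Ang II at 3 h. Its fold change was 0.01 ± 0.11 (SE, n = 4), with a 95% interval of -0.22 to 0.24. At 6 h it read 15.30, 15.78, 15.40 and 15.66 in Control and 15.43, 15.65, 15.42 and 15.64 in Ang II, with a fold change of 0.00 ± 0.06 and an interval of -0.13 to 0.13. The groups overlapped at each time. Rps19, Rps24 and Rpl35a are among the genes whose loss of a copy is known to cause Diamond-Blackfan anaemia, with Rps14 known from a form of myelodysplasia. Their fold changes at 3 h were -0.09, -0.22, -0.17 and 0.02, and at 6 h -0.01, -0.06, -0.03 and -0.09, and 0 of them passed. Rpsa, a small subunit protein also known as a laminin receptor, was at 0.04 ± 0.09 at 3 h and -0.01 ± 0.06 at 6 h.

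Genes of the same pathway outside the name rule were counted in the same fit. In the Ang II comparison 5.32% of all genes were higher and 7.38% lower at 3 h, and 10.6% and 10.9% at 6 h. The counts of that comparison below stand beside these shares. Gnb2l1, the scaffold RACK1 on the small subunit, was at 0.40 ± 0.18 (SE) in the Ang II comparison at 3 h, with an unadjusted p under 0.05. Fau, a fusion that holds a small subunit protein, was at -0.07 and did not pass. Of 4 paralogs such as Rpl10l, 0 passed in any comparison except the PD123319 comparison at 6 h, where Rpl10l was higher, by 0.34 ± 0.15. There 3.89% of all genes were higher. Of 17 elongation and initiation factors and other transcripts known to carry the tract, 1 was higher at 3 h, and at 6 h 2 were higher and 1 was lower. At 6 h Eef1a1, the factor that brings aminoacyl-tRNA to the ribosome, was higher on all 4 slides, with a log2 fold change of 0.35 ± 0.10 (adjusted p = 0.12). Eif2s3x was the other that was higher, and Eif4b, a cofactor of the initiation helicase, was at -0.12. Of 9 S6 kinase, mTOR and tract-binding genes tested, 1 was higher at 3 h (Rps6ka3) and at 6 h Mtor was higher, by 0.32, and Rps6kb2 was at -0.17. The members' median of -0.09 at 3 h stood beside 0.09 for the 17 factors, 0.02 for 66 mitochondrial ribosomal protein genes and 0.17 for 34 other abundant transcripts. The 34 are a chosen list, and the 1292 other genes in the brightest 10% had a median of -0.02. At 6 h 2 of 67 mitochondrial ribosomal protein genes were higher, against 10.6% of all genes, and 10 were lower, against 10.9%, with a median of -0.03, the same to 2 decimals as that of the cytosolic members. In the Losartan comparison at 3 h, 7 of the 34 abundant transcripts were lower, against 6.11% of all genes, and 0 were higher, against 4.94%. Their median was -0.18, against -0.03 for the members and -0.03 for the 1292 other genes in the brightest 10%.

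The members with a run of at least 8 C or T bases were set beside those without. In the Ang II comparison at 3 h the 39 with a run had a median log2 fold change of -0.13 and the 21 without had one of -0.05. At 6 h the medians were -0.03 and -0.01. In the comparisons with the antagonists the medians of the 2 sets lay within 0.02 of each other.

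Of the 75 members, 43 had more than 1 feature. The features of a gene differed by a median of 0.13 in log2 fold change in the Ang II comparison at 3 h and of 0.07 at 6 h. The widest at 3 h were those of Rps12, at -0.20 ± 0.12 and 0.41 ± 0.43 (SE), although they overlap on chromosome 1. Rpl37a had 3 features and 2 placements in the rn4 annotation. A feature at chr9:71841866-71841925 was at -0.53 ± 0.11 in the Ang II comparison at 6 h, with an unadjusted p under 0.05, at 0.28 ± 0.11 in the Losartan comparison and at 0.24 ± 0.11 in the PD123319 comparison, which were also past that limit and share the Ang II arrays. The 2 features on chromosome 5, at chr5:146450567-146450626 and chr5:146450833-146450892, were at -0.02 ± 0.06 and -0.10 ± 0.48 in the Ang II comparison. The gene as a whole, the mean of the 3, was lower in Ang II on all 4 slides at 6 h, at -0.22 ± 0.16, and did not pass. Ribosomal protein genes have many near-identical processed copies in the genome, and which copies a feature also binds was not examined. For the 2 members printed 10 times on each array, Rps4x and Rpl15, the SD of the log2 signal between the 10 spots had a median of 0.13 and 0.11 at 3 h and of 0.06 and 0.08 at 6 h.

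The place of the members against all genes moved with the normalization, as the median of the members minus the median of all genes shows. In the Ang II comparison at 3 h this difference was -0.09 after cyclic loess, -0.11 with normexp background correction, -0.04 after quantile normalization, -0.15 with each array scaled to its 75th percentile and -0.15 with no normalization, below 0 under each. The last 2 give the same difference by construction, since scaling moves all genes of an array alike, so the ways are 4 in this measure. Under the 75th percentile 7 members were lower and 0 were higher, and of all genes 9.83% were lower and 2.76% higher, while with quantiles these shares were 9.56% and 4.23%. In the Losartan comparison at 3 h it was -0.03, 0.00, 0.02, 0.14 and 0.14 in the same order, so the side of 0 turned with the method. Under the 75th percentile 5 members, Rpl27, Rpl27a, Rpl9 and Rps25 among them, were higher with an unadjusted p under 0.05, against 5.41% of all genes, and Rps28 did not pass. In the PD123319 comparison at 3 h it was above 0 under each, from 0.02 to 0.10, where after cyclic loess the other genes in the brightest 10% had a median as high as the members'. At 6 h the values lay between -0.06 and -0.02 in the Ang II comparison, between -0.01 and 0.07 in the Losartan comparison and between 0.02 and 0.03 in the PD123319 comparison. With no normalization the median of all genes itself at 3 h was 0.44 for Ang II, -0.27 for Losartan and -0.21 for PD123319, and values are therefore given relative to it. The split of all genes at the unadjusted limit also moved with the 75th percentile in other comparisons. At 6 h in the Ang II comparison 13.01% were lower and 8.39% higher, in the Losartan comparison at 6 h 0.864% and 0.985%, and in the PD123319 comparison 0.264% and 3.17% at 3 h and 1.22% and 6.46% at 6 h. With quantiles the PD123319 comparison at 3 h gave 0.587% and 2.44%. No member had an adjusted p under 0.05 in limma under the 4 ways that were tested. With no normalization only values were computed.

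**Figure D4:**
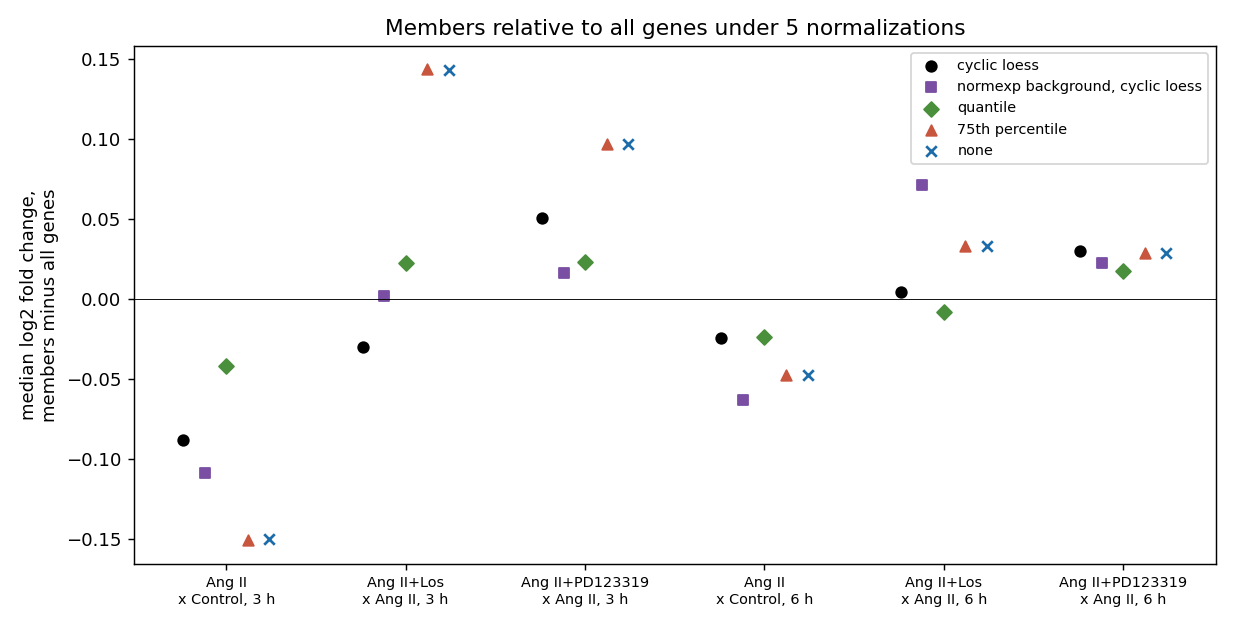
Median log2 fold change of the members minus that of all genes tested, in the 6 comparisons, for 5 ways of making arrays comparable, of which the 75th percentile and no normalization coincide by construction. In the Losartan comparison at 3 h the values run from -0.03 to 0.14 and cross 0, and in the Ang II comparison at 3 h all lie below 0, from -0.15 to -0.04.

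The value table that the authors deposited beside the scanner files held few of the members. Its values equal the log2 processed signal of the scanner within 0.01, with no shift between arrays, and many cells are blank. Of the 137 member features, 36 to 70 had a value on an array of 3 h and 37 to 85 on an array of 6 h. Only 9 features of 9 members were complete over the 16 arrays of 3 h and 14 features of 12 members over those of 6 h, although 134 and 136 member features were well above background on all of them. Of all features well above background on every array, 65.5% were complete at 3 h and 68.0% at 6 h. The share of filled cells went down above a log2 signal of 13 for members and other genes alike. At 3 h, between a log2 signal of 12 and 13, the table gave 96.7% of member values and 90.3% of others. Between 15 and 16 it gave 27.3% and 33.2%, and above 16 it gave 11.4% and 13.4%. At 6 h the shares above 16 were 17.6% and 18.5%. The members' results from that table therefore rest on 9 and 12 genes, and 0 of them passed the unadjusted limit except in the Losartan comparison at 3 h, where Rpl27 was higher.

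**Figure D5:**
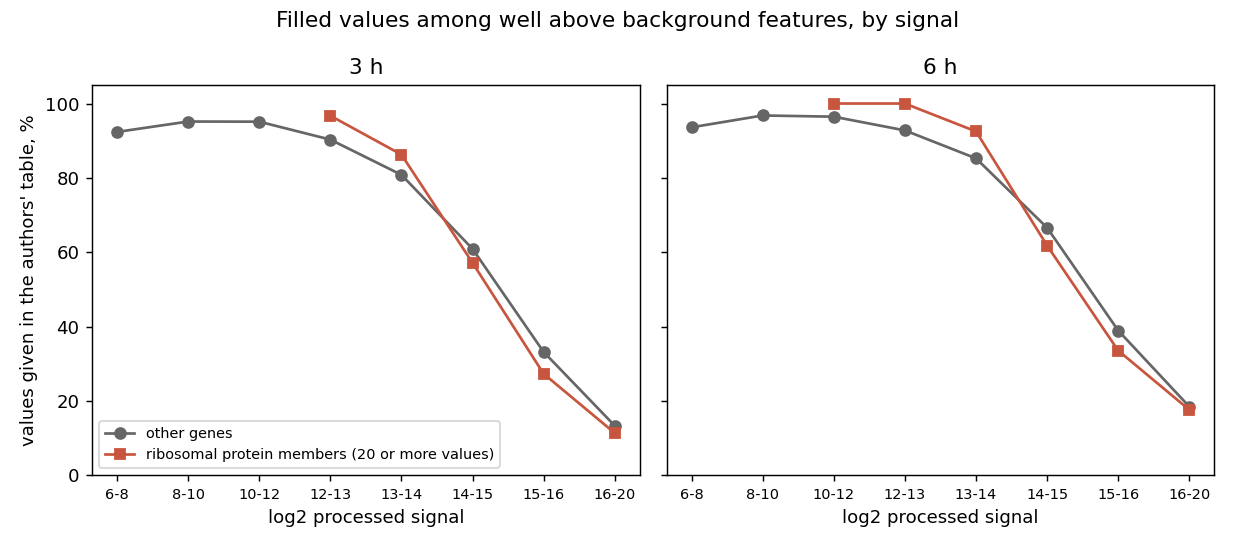
Share of values, in percent, that the authors' table gives among features well above background, by the log2 processed signal of the scanner, at 3 h and 6 h. Squares are ribosomal protein members, shown where a bin holds at least 20 values, and circles are all other genes. Both lines are above 80% up to a log2 signal of 14 and below 20% above 16.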

How the data were processed

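Total RNA of C6 cells was hybridised to Agilent 4x44K rat arrays with 1 colour. Per the file headers, the authors extracted each spot's intensity with Agilent Feature Extraction 9.5.3.1 (gProcessedSignal, background-subtracted, with surrogate values for dim spots at 6 h but not at 3 h). The deposited value table holds log2 intensity with blanks. The labels and methods name Lowess between arrays and t-tests. The members and lists were chosen with earlier results of these data known.

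Spots flagged as outliers by the scanner software were dropped, as were features lacking a value on more than 2 arrays of a time. Signals not significantly above background took the spot's error value. Log2 signals were averaged over spots and normalized per time by cyclic loess (span 0.7, 3 iterations) in limma 3.58.1 under R 4.3.3. Features had to be well above background on every array of some group, and these were averaged per gene name. Control spots were left out. Each time was fitted with limma with the replicate number, which is the slide, as a block, with Benjamini-Hochberg adjustment over all genes. In this fit no gene passed after adjustment, so counts use the unadjusted p at 0.05. Deviations from the group means of arrays on the same slide correlated at 0.15 to 0.92 (median 0.67) at 3 h and 0.55 to 0.83 (median 0.69) at 6 h. Other pairs correlated at -0.72 to 0.37 (median -0.12) and -0.65 to 0.13 (median -0.17), so the ranges overlapped at 3 h. Scan numbers follow scan days: replicates 1 and 2 and replicates 3 and 4 at 3 h, and replicates 1 to 3 and replicate 4 at 6 h. The times lie on different slides, so levels were not compared between them.

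The script was tested on simulated data. The members named are those of role lists, the 3 highest and 3 lowest per comparison of those past the unadjusted limit with 1 direction on all 4 slides, and the 3 brightest and dimmest. Other members, given to complete a count of 5 or fewer, a widest spread or a range, were named after their values were seen. The number of arrays limits the precision. On the arrays 55.9% to 64.7% of spots at 3 h and 64.2% to 79.8% at 6 h were well above background. Alternatives were other background corrections, normalizations, filters and tests, the value table, each feature alone, saturated spots left out, no block, and each replicate left out. Some members and related genes are not reported here by name.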

Additional observations from a re-analysis of the deposited data

Results flagged for a closer look

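For 15 members, and for the medians and signal shares of the members, each set of 4 arrays or slides was searched for a value that stood apart from the other 3. Of 139 sets 8 held such a value, and chance alone gives about 1 in 20. All are normalized log2 signals of single members. Rpl28 was at 9.89 on 1 Control array of 3 h, where the others read 10.90 to 10.94, at 10.87 on 1 Ang II+Los array of 3 h, where the others read 11.16 to 11.20, and at 10.82 on 1 Ang II+PD123319 array of 6 h, where they read 11.15 to 11.20. Rpl37a was at 11.69 on 1 Ang II+Los array of 6 h, with the others at 11.89 to 11.91, and at 10.98 on 1 Ang II+PD123319 array of 6 h, with the others at 11.68 to 11.81. Rplp1 was at 15.69 on 1 Ang II+Los array of 6 h, above the 15.51 to 15.54 of the others. Rpl31 was at 14.97 on 1 Control array of 6 h, below 15.27 to 15.30, and Rps28 was at 15.67 on 1 Control array of 6 h, above 15.46 to 15.47. No member's change between 3 h and 6 h passed an adjusted p of 0.05 in limma.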

How the results depend on the processing

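Counts below are members with an unadjusted p under 0.05, and no alternative with a test gave a member an adjusted p under 0.05. With each feature on its own, a member was counted if any of its features passed, while the share in all genes is over single features. Many members have more than 1 feature, so in that setting the share is not a like background for the count. With no normalization and on the slides of 1 scan alone only values were computed. In the Ang II comparison at 3 h the count of 5, all lower, became 0 with no replicate block and from the deposited values, where 1.72% and 7.29% of all genes were lower, and 11 with each feature on its own (7.09%), 14 with no filter (6.61%), 8 with normexp background (6.96%), 8 by the methods' paired t-test (5.08%) and 3 with spots with outlier flags kept (7.34%). It ran from 1 to 4 when a replicate was left out, at 2 without replicate 2 and 1 without replicate 4. By the methods' unpaired t-test the count stayed at 5, all lower, against 1.54% of all genes. Rpl31 was the only one of these 5 that had also passed in limma with the slide as a block. In the same comparison at 6 h the count of 0 became 3, all lower, with each feature on its own, where 10.89% of all genes were lower. By the methods' paired t-test it became 6, all lower, against 6.08%. It ran from 0 to 2 with a replicate left out, at 2, both lower, without replicate 4 (5.285%). In the Losartan comparison at 3 h the count of 1 became 5 at the 75th percentile, all higher, where 5.41% of all genes were higher. With each feature on its own it became 4, 2 higher and 2 lower, against 4.83% and 6.31%. With no filter it became 2, 1 higher and 1 lower, against 3.42% and 3.87%. With no replicate block it became 0, against 0.947% higher and 1.57% lower. It became 3, all higher, with normexp background (5.79%) and by the methods' paired t-test (1.45%). It ran from 0 to 1 with a replicate left out. At 6 h the count of 0 in the Losartan comparison became 1 higher at the 75th percentile, against 0.985% of all genes. It became 2 higher with each feature on its own (0.795%) and 2 higher with normexp background (0.7845%). By the methods' paired t-test it became 4, 2 higher and 2 lower, against 1.90% and 2.68%. In the PD123319 comparison at 3 h the count of 0 became 1 higher with no filter, where 2.34% of all genes were higher. By the methods' unpaired t-test it became 2, both higher, against 0.470%. It ran from 0 to 1 with a replicate left out, at 1 higher without replicate 1 (3.95%). At 6 h the count in the PD123319 comparison became 1 higher at the 75th percentile, where 6.46% of all genes were higher. It was also 1 higher with each feature on its own (3.81%), with normexp background (4.75%) and with quantile normalization (3.33%). By the methods' paired t-test it was 4, 3 higher and 1 lower, against 3.84% and 4.83%.

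The members' median log2 fold change kept within 1 SD of the slides in 88 of 102 alternatives. Some of these could hardly move it, since no member spot was saturated and all members passed each filter. Leaving out the block or saturated spots and changing the filter each gave -0.09 in the Ang II comparison at 3 h, as in the main fit. The 88 are therefore not a measure of stability. In that comparison the members' median was -0.21 at the 75th percentile, 0.0141 from the deposited values and 0.29 with no normalization. In the Losartan comparison at 3 h it was 0.20 at the 75th percentile, 0.21 from the deposited values, -0.13 with no normalization and 0.0542 by quantiles. At 6 h it was 0.0452 at the 75th percentile, -0.0606 with no normalization and 0.0674 with normexp background. In the PD123319 comparison it was 0.11 at the 75th percentile and -0.11 with no normalization at 3 h, and at 6 h it was -0.0568 with no normalization and 0.12 on the slide of scan 4 on its own. Rplp1, Rpl29 and Rps27 lost the unadjusted limit in 20 of 46 alternatives. Keeping spots with outlier flags and using no normalization were added after seeing the data. The causes were not tested.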
